A study of Mus musculus with 2 samples.

Results

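Havcr1-high tubule cells were studied in a mouse kidney 1 day after unilateral ischemia-reperfusion, and were chosen by their own Havcr1 count. Havcr1 encodes kidney injury molecule 1 (KIM-1), a surface protein that is barely made by the healthy tubule. A cell entered the group if its barcode held 2000 to 150000 UMIs (unique molecular identifiers, each marking 1 captured RNA molecule), at most 55% mitochondrial UMIs, at least 5 Havcr1 UMIs that made up at least 0.05% of the cell's UMIs, and no UMI of Ptprc, the leukocyte antigen CD45. The group held 540 of the 14152 cells within the depth and mitochondrial limits, and those were drawn from 30367 barcodes. Of the 540 cells, 531 came from the ischemia library (7.96% of its 6670 cells, exact 95% binomial interval 7.32 to 8.64) and 9 from the control library (0.120% of 7482 cells, 0.0550 to 0.228).

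The study profiled dissociated kidney from wildtype male C57BL/6J mice aged 19 weeks by droplet single-cell RNA sequencing. The ischemia library was the left kidney after 27 min of ischemia and 24 h of reperfusion. The control library was the contralateral kidney, which was not clamped but shared its circulation with the injured one, and the design text describes a single mouse for both. The libraries held 142959737 (ischemia) and 142686238 (control) UMIs over 15257 and 15110 barcodes. Each condition was measured in 1 library and cells are not replicates, so no test was run and no p-value is given. Every interval below is an exact 95% interval that covers counting error only.

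The Havcr1-high cells of the ischemia library were compared with 1663 Havcr1-low proximal tubule (PT) cells of the same library. Those had Havcr1 below 0.05% of UMIs, no Ptprc UMI, and at least 10 UMIs and at least 0.1% of UMIs from 4 PT genes (Lrp2, Slc34a1, Slc5a12 and Slc7a13). The 3587 Havcr1-low PT cells of the control library are given beside them. A level is the UMIs of a gene summed over the cells of a group and divided by all UMIs of those cells, scaled to a total of 1000000 (CPM). A ratio is the quotient of 2 such levels, and a gene is called higher or lower at a ratio of at least 2 or at most 0.5 among genes with at least 100 UMIs over both groups.

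The proximal tubule reabsorbs most of the glucose, amino acids, phosphate and protein that the glomerulus filters, and it burns fatty acids to do so. Its last straight segment in the outer medulla is known to be the most sensitive to ischemia. After sublethal injury PT cells are known to lose parts of this transport program, to switch on Havcr1, the transcription factor Sox9, keratins and secreted injury factors, and either to recover or to persist in an altered state. KIM-1 lets such cells engulf apoptotic neighbours. Fosl1 (Fra-1) is a member of the AP-1 family of stress-activated transcription factors, and Krt20 is an intermediate filament keratin that marks injured tubules.

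Havcr1 lies at chr11:46735080-46779578 on the plus strand of GRCm38 (GENCODE M21). Krt20 lies at chr11:99428403-99438150 (minus strand), Sox9 at chr11:112782224-112787760 (plus strand) and Fosl1 at chr19:5447547-5455946 (plus strand). RefSeq promoter windows of 300 bases (GRCm38.p6, 250 bases before to 50 after a start site) were present for 11 of the 19 genes looked at, which were the 4 markers and the 15 genes highest in Havcr1-high cells. The letters TGANTCA, which AP-1 factors are known to bind, were found on either strand in 4 of their 15 windows, against 7.81% of all 32851 windows. The letters TTCNNNGAA, bound by STAT factors, were found in 0 of the 15 windows, against 8.30% of all windows. Stretches of 3 genes are shown because they sit beside genes on which the results below turn. The fourth, for Gm8126, lay outside the interval that GENCODE gives for that gene. It is among the 4 counted and is not printed. Capitals mark the AP-1 letters, and each stretch is 30 bases read 5′ to 3′ on the gene's strand.
Havcr1, chr11:46751167-46751196, plus strand, 11 bases after a RefSeq start site inside the gene: ggtcagtaccaTGAATCAgattcaagtctt
Anxa2, chr9:69453577-69453606, plus strand, 95 bases before the RefSeq start site: tccaagttggaTGAGTCAcccagcagggtg
Osmr, chr15:6874292-6874321, minus strand, 4 bases after a RefSeq start site inside the gene: tgccccgtagtTGATTCAtagctggggcgc
A match describes these letters and is not evidence of binding.

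Havcr1 itself described the selection. Its level was 1254 CPM in the Havcr1-high cells of the ischemia library (1238 to 1271) and 996 CPM in the 9 of the control library (870 to 1136), against 103 CPM in the Havcr1-low PT cells of the ischemia library and 3.45 CPM in those of the control library. The rule set these values apart, so nothing is read from the first contrast. Within the group a cell held 5 to 245 Havcr1 UMIs, the median share was 0.112% and the highest 0.478%. The members nearest the threshold stood at 0.0501, 0.0504 and 0.0507%, and the nearest cells outside at 0.0499, 0.0497 and 0.0497%. A further 172 barcodes of the ischemia library reached the share with fewer than 5 Havcr1 UMIs and 20 passed the Havcr1 limits with over 55% mitochondrial UMIs.

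Havcr1 RNA was also counted outside the PT. Ischemia leukocytes (at least 3 Ptprc UMIs, 590 cells) held 78.9 CPM and gated endothelial cells 52.0 CPM, while thick ascending limb cells held 13.1 CPM and collecting duct principal cells 13.0 CPM. Barcodes under 2000 UMIs in that library held 474 CPM (456 to 492). The gated groups were built from cells under the Havcr1 limit of 0.05%, or 500 CPM, so their levels lie below it by construction. That limit did not apply to leukocytes or to the barcodes under 2000 UMIs.

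**Figure D1:**
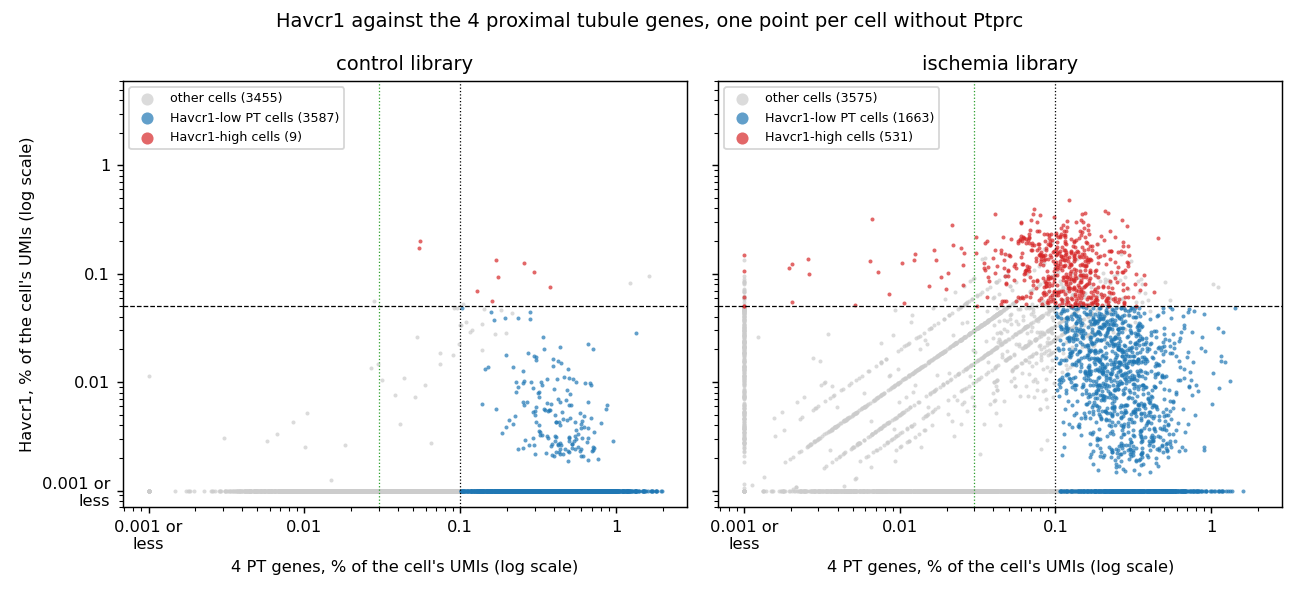
Each point is a cell without Ptprc, plotted by the share of its UMIs from the 4 PT genes (x axis, percent, log scale) and from Havcr1 (y axis, percent, log scale) in the control and ischemia libraries, with shares of 0.001% or less drawn at the edge. The dashed line marks 0.05% Havcr1 and the dotted lines 0.03% and 0.1% of the PT genes: 531 Havcr1-high cells (red) stand above the line in the ischemia library and 9 in the control library.

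The cells were deep. The median Havcr1-high cell of the ischemia library had 36419 UMIs and 5541 genes with 19.2% mitochondrial UMIs, and the median Havcr1-low PT cell 24872 UMIs and 4567 genes with 23.5%. The part that depth plays in the shares of cells given below was not tested beyond thinning each cell to 2000 UMIs. The libraries shared 88 barcodes, and 3 Havcr1-high cells of the ischemia library carried one of these.

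The PT label was checked with genes the rule did not use. The summed level of Cubn, Slc22a6, Slc27a2, Hnf4a, Miox and Pdzk1 was 1947 CPM in Havcr1-high cells against 2229 CPM in Havcr1-low PT cells and 338 CPM in leukocytes. The most abundant of them was Slc27a2, a fatty acid transporter, at 822 CPM. Hnf4a, the transcription factor that maintains the PT program, had a UMI in 81.2% of Havcr1-high cells, 82.9% of Havcr1-low PT cells and 14.1% of leukocytes (20.9%, 23.6% and 5.76% with every cell thinned to 2000 UMIs). Of the 531 cells, 294 also met the PT condition of the comparison group, and 237 did not. A set of 31 cells had less than 0.03% of their UMIs from the 4 PT genes (median 0.010%). In those 31, chosen after values were seen, Hnf4a stood at 19.8 CPM, against 105 CPM over all Havcr1-high cells, so the tubule label rests on PT genes in the other 500. Because these few cells set several summed levels, ratios are given below for all 531 cells, without the 31, and for the 294, and where 3 ratios stand together they are in that order. A narrower comparison, also chosen after values were seen, kept cells with 0.1 to 0.2% of the 4 PT genes on both sides (227 Havcr1-high and 434 Havcr1-low PT cells). It is called the matched PT range below. Single ratios in it were followed for 28 named genes, and medians for the lists. Among these it is given where a call was lost or a direction turned, and for some others. For all other genes no ratio in that range is given, so whether their calls held there was not shown.

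Markers of the other nephron segments and cell types were low in Havcr1-high cells. The thick ascending limb list summed to 77.3 CPM (Umod 69.2 CPM), against 108 CPM in Havcr1-low PT cells, and the collecting duct principal cell list to 15.3 CPM. The macrophage list summed to 19.6 CPM, led by Cd74, against 11024 CPM in leukocytes. The neutrophil list summed to 3.84 CPM with Csf3r at 0. The T cell, B cell and urothelium lists summed to 0.162, 0.216 and 0.432 CPM (0.174, 0.434 and 0.304 CPM in Havcr1-low PT cells). The pericyte and stroma list summed to 1.94 CPM (6.27 CPM), led by Acta2. In these lists Cd3e, Cd3d, Cd79a, Cd79b, Dcn, Upk1b, Upk2 and Upk3a were at 0 UMIs. The endothelial and podocyte lists, at 30.1 and 10.1 CPM, stood above the 21.5 and 7.75 CPM of Havcr1-low PT cells, with no measured gene called. The exception was the thin limb list at 661 CPM against 109 CPM, with 3 of 4 measured genes called higher and a median log2 ratio of 1.05. Cryab, a small heat shock protein that stressed cells also make, gave 622 CPM of it, Slc14a2 stood at a ratio of 2.02, and Sptssb was at 0 UMIs. Without the 31 cells Slc14a2 stood at 0.107 and the list median was −0.60. None of the 531 cells passed the gates set for thick ascending limb, distal convoluted and connecting tubule, principal or intercalated cells, and 4 passed the endothelial gate.

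**Figure D2:**
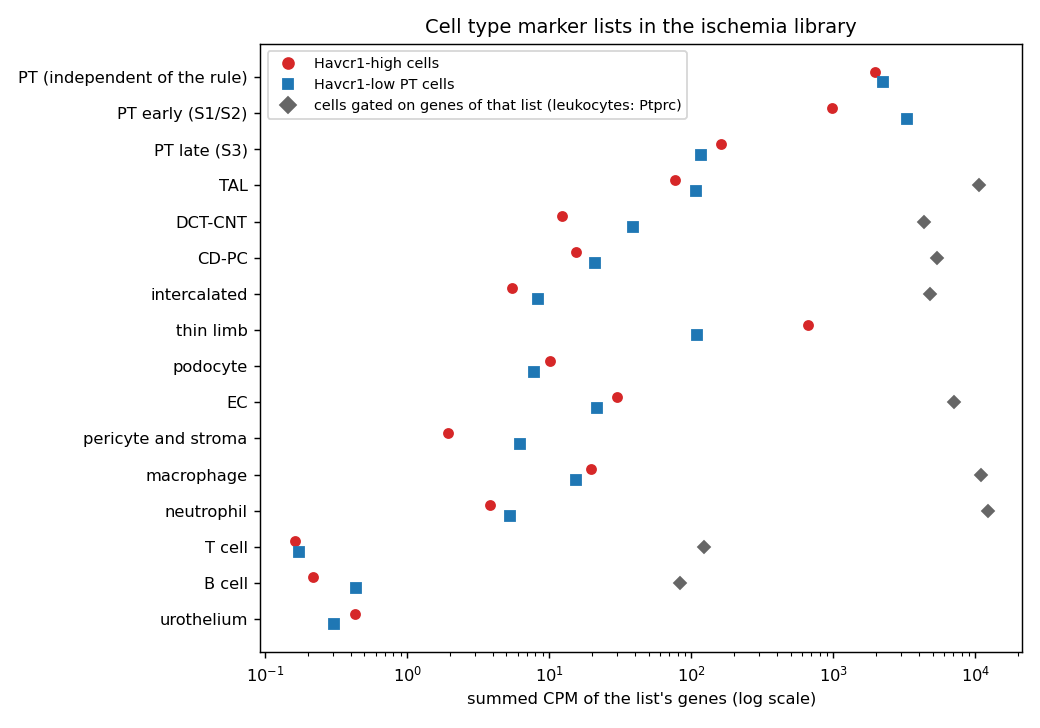
Summed CPM (x axis, log scale) of each cell type marker list in Havcr1-high cells (red circles) and Havcr1-low PT cells (blue squares), ischemia library. Grey diamonds, where a gate exists, are cells gated on genes of that list or, for the leukocyte lists, on Ptprc. The leukocyte lists lie orders of magnitude below gated cells, and the thin limb list stands furthest above the Havcr1-low PT cells, through Cryab.

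The 3 other markers were higher in Havcr1-high cells than in Havcr1-low PT cells. Krt20 was at 21.3 CPM against 3.78 CPM in the ischemia library, with 0.284 CPM in the Havcr1-low PT cells of the control library. Its ratio was 5.65 (4.72 to 6.80), and 5.52 without the 31 cells and 3.91 in the 294. Sox9 was at 60.1 CPM against 20.0 CPM, with 0.703 CPM in the control cells. Its ratio was 3.0 (2.74 to 3.27), then 3.07 and 2.75, and 1.69 in the matched PT range, where the call was lost. Krt20 stood at 2.19 and Fosl1 at 2.96 there. Sox9 thus already differed between Havcr1-low PT cells of the 2 libraries. Fosl1 was at 4.97 CPM against 0.391 CPM, a ratio of 12.7 (7.62 to 22.4), then 9.19 and 7.12. It rested on 92 UMIs in 49 cells, and gated endothelial cells held 8.52 CPM of it.

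Most Havcr1-high cells lacked a captured copy of at least 1 of these markers. A UMI of Sox9 was found in 52.2% of them (22.2% of Havcr1-low PT cells), of Krt20 in 24.3% (5.23%) and of Fosl1 in 9.23% (0.661%). In ischemia leukocytes, with a median of 7884 UMIs against 36419, the shares were 5.09% for Sox9, 1.53% for Krt20 and 3.05% for Fosl1. With every cell thinned to 2000 UMIs, Sox9 was found in 7.72% against 3.19% of Havcr1-low PT cells and 1.53% of leukocytes, and Krt20 in 4.52% against 0.481% and 0.508%. For Sox9 other tubule cells came closer to the Havcr1-high share, since it was found in 6.00% (4.22 to 8.25) of gated distal convoluted and connecting tubule cells after thinning, against 5.6 to 10.3 as the interval in Havcr1-high cells, and in 3.28% of thick ascending limb cells. The thinned Fosl1 share was 0.753% against 0 of 1663 Havcr1-low PT cells and 1.53% of leukocytes, and being below that of leukocytes it is not read as a difference. At least 1 of the 3 genes was found in 328 Havcr1-high cells (61.8%) and in 25.8% of Havcr1-low PT cells, or 12.8% against 3.67% after thinning. All 3 were found together in 18 cells and in 0 of the 1663 Havcr1-low PT cells, and in 0 cells of either group after thinning.

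Across all genes, 392 of the 11246 measured (3.49%) were called higher in Havcr1-high cells and 454 (4.04%) lower. Without the 31 cells, 249 of 11155 genes (2.23%) were higher and 494 (4.43%) lower. In the 294 cells that met the PT condition, 192 of 10961 genes (1.75%) were higher and 514 (4.69%) lower. The number of genes called higher therefore fell in both these smaller sets, and the number called lower did not. In the matched PT range, where fewer genes were measured, both numbers were smaller, as given in the closing section. The rule chose cells on Havcr1 and the comparison cells on PT genes, so lower PT genes are in part fixed by that choice. The median log2 ratio over all measured genes was 0.03.

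Runx1, a transcription factor of blood and epithelial development, had the highest ratio. It was at 23.2 CPM against 1.11 CPM, a ratio of 20.9 (15.6 to 28.6), which was 11.7 without the 31 cells, 8.88 in the 294 and 5.93 in the matched PT range. A UMI was found in 22.2% of Havcr1-high and 1.56% of Havcr1-low PT cells. The 5 highest cells held 32.9% of its UMIs, and its level in the 31 cells was 210 CPM. Ischemia leukocytes held 268 CPM of it, and gated principal and intercalated cells 30.6 and 30.0 CPM. The other gated groups held less than the Havcr1-high cells. Hspb1, the small heat shock protein HSP27 that stabilises actin, was more evenly spread. It was at 268 CPM against 21.9 CPM, a ratio of 12.2 (11.4 to 13.1), then 10.7 and 9.65, and was found in 63.3% against 21.3% of cells. Anxa2, a membrane-binding annexin, was at 240 CPM against 31.3 CPM, a ratio of 7.69 (7.24 to 8.16), then 6.68 and 5.23, and was found in 81.4% against 28.3% of cells (31.1% against 4.33% after thinning). Leukocytes, which express Anxa2, held it in 73.1% of cells (44.9% after thinning) and gated endothelial cells in 78.7% (54.7%). Thick ascending limb cells held it in 86.1% (34.4%), and gated distal convoluted and connecting tubule cells in 37.9% (7.72%). Osmr, the receptor subunit for oncostatin M of the IL-6 cytokine family, was at 26.9 CPM against 4.38 CPM, a ratio of 6.14 (5.20 to 7.27), then 5.99 and 5.06. Hspb1, Anxa2 and Osmr rested on many cells, since the 5 highest cells held 18.4%, 10.7% and 9.24% of their UMIs. In the matched PT range they stood at 5.29, 2.69 and 2.91.

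Other genes of the 15 highest kept a ratio over 4 in the 294 cells. They were Ppl (periplakin, a cytoskeletal linker, 6.14), Chsy3 (a chondroitin sulfate synthase, 6.90), Hsd17b2 (an enzyme that inactivates sex steroids, 6.35), Anxa3 (4.12), Slc34a2 (a phosphate transporter, 5.18) and Gm8126 (a predicted gene, 5.18). Cryab and Sfn (14-3-3 sigma) stood at 3.71 and 3.29, and Sfn lost its call in the matched PT range (1.75). The remaining 3 leaned on the 31 cells. S100a6, a calcium-binding protein, had a ratio of 18.8 over all Havcr1-high cells, 5.45 without the 31 and 3.50 in the 294, and its level in the 31 was 11629 CPM. In the matched PT range it stood at 1.62 and was not called. Akap12, a kinase anchor, went from 8.74 to 4.39 and 2.12, and Scin, an actin-severing protein, from 6.04 to 2.44 and 1.83. Both turned in the matched PT range, to 0.918 and 0.920. For Slc34a2 too the 5 highest cells held 54.7% of the UMIs, and its ratio over all Havcr1-high cells was 19.3. Ratios were smaller in the matched PT range, where Slc34a2 stood at 2.54, Anxa3 at 2.55 and Cryab at 2.30, and after thinning for Ppl (3.13) and Hsd17b2 (2.78).

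**Figure D3:**
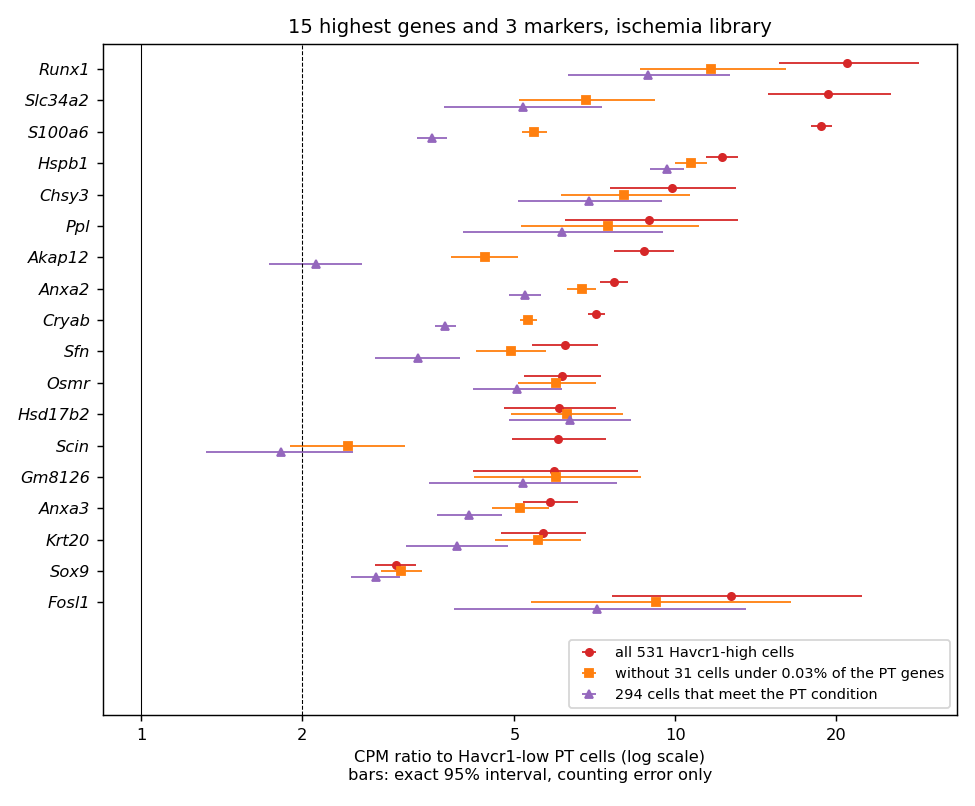
CPM ratio of Havcr1-high to Havcr1-low PT cells (x axis, log scale) for the 15 highest genes and the markers Krt20, Sox9 and Fosl1, over all 531 Havcr1-high cells (red), without the 31 cells under 0.03% of the PT genes (orange) and in the 294 cells that met the PT condition (purple), with exact 95% intervals. All 18 genes lie above 1 in each set, and S100a6, Slc34a2, Akap12 and Scin move most between sets.

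The injury and dedifferentiation list had 8 of its 15 genes called higher and 0 lower, with a median log2 ratio of 1.02. Without the 31 cells the median was 0.80 with 7 higher, and in the 294 it was 0.60 with 5 higher and 2 lower. The direction turned in the matched PT range, where the median was −0.21. Cp, which encodes ceruloplasmin, the copper-carrying ferroxidase, was at 146 CPM against 29.3 CPM, with ratios of 4.99, 4.23 and 3.54. Plin2, the coat protein of lipid droplets, was at 399.8 CPM against 175 CPM, with ratios of 2.28, 2.38 and 2.26. Spp1 (osteopontin) was at 22492 CPM against 16394 CPM and 1819.9 CPM in the control cells, a ratio of 1.37 that was not called. Lcn2 (NGAL), the urinary injury marker, was at 64.3 CPM against 80.7 CPM, and Clu at 126 CPM against 137 CPM. In the 294 cells Lcn2 stood lower, at 36.2 to 44.4 CPM over 3 ranges of Havcr1. After thinning Lcn2 was found in 13.0% of Havcr1-high cells, 10.5% of Havcr1-low PT cells, 38.0% of leukocytes and 26.9% of gated endothelial cells. Clu was found in 18.6%, 20.3%, 38.5% and 48.6%, and Spp1 in over 98% of each. Other tubule cells held Lcn2 and Clu more often. Lcn2 was found in 84.4% of thick ascending limb and 52.0% of gated distal convoluted and connecting tubule cells, and Clu in 88.5% and 93.3%. The part of free RNA in these levels was not tested. Vcam1 and Cd24a were called higher over all Havcr1-high cells (6.91 and 2.02) and stood at 1.57 and 0.495 in the 294. Vim, the mesenchymal filament vimentin, stood at 3.35, 3.47 and 1.52.

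Among the keratins, Krt20 was the 1 of 4 measured genes called higher. Krt8 was at 253 CPM against 135 CPM and Krt18 at 20.3 CPM against 10.7 CPM, ratios of 1.87 and 1.89. The AP-1 and immediate early list had 5 of 14 genes called higher, with a median log2 ratio of 0.81 that was 0.29 in the 294 and −0.36 in the matched PT range. Maff was called in all 3 sets of cells (2.6, 2.44 and 2.21). Fosl1 was called over all Havcr1-high cells, on 92 UMIs against 18 in Havcr1-low PT cells. In both smaller sets Fosl1 had too few UMIs for a call, with 30 in the 294. Myc stood at 2.5, 2.42 and 1.78. Atf3, a stress-response factor, was at 168 CPM against 61.6 CPM, with ratios of 2.73, 1.86 and 1.49, and Jun and Fos stood at 1.17 and 1.34.

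Cytoskeletal and membrane genes were higher in part. Of 17 measured actin, annexin and S100 genes, 9 were higher and 0 lower over all Havcr1-high cells (median log2 1.04), 8 without the 31 (0.99) and 4 in the 294 (0.63). S100a10, the partner of annexin A2, was at 1378 CPM against 464 CPM and 134 CPM in the control cells, with ratios of 2.97, 2.94 and 2.76. S100a11 stood at 2.45, 2.20 and 1.96, and Anxa5 at 2.06, 1.98 and 1.84. The extracellular matrix and protease list had 5 of 9 genes higher, but its median log2 ratio of 1.33 was 0.52 without the 31 cells, 0.13 in the 294 and −0.16 in the matched PT range, where the direction turned. In it Plaur, the urokinase receptor, was at 47.8 CPM against 8.98 CPM (5.32, 4.85 and 3.79), and its ligand Plau at 75.3 CPM against 30.0 CPM (2.51, 2.35 and 2.42). Timp1, an inhibitor of matrix metalloproteinases, went from 3.94 to 2.18 and 1.39, and Plat, the tissue plasminogen activator, from 3.08 to 1.44 and 0.936.

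Signals to other cells were measured at low levels. Of 7 measured chemokine and cytokine genes 3 were called higher, with a median log2 ratio of 0.95. Cxcl1, a neutrophil chemokine, was at 49.4 CPM against 21.2 CPM and 4.06 CPM in the control cells, with ratios of 2.33, 2.20 and 2.29. Csf1, a macrophage growth factor, was at 5.46 CPM against 1.17 CPM (4.66, 3.94 and 3.56), and Il34, which shares its receptor, at 110.2 CPM against 57.2 CPM (1.93, 1.92 and 1.96). Cxcl2 was called at 3.63 over all Havcr1-high cells and stood at 1.69 in the 294, with 71.1% of its UMIs in 5 cells. Of the 9 measured genes of the IL-6 family receptor and STAT3 target list, Osmr and Cebpd were called in all 3 sets (Cebpd at 3.58, 3.08 and 2.63), while Il6st stood at 1.13 and Stat3 at 1.07. Of the IL-1 and NF-kB list Nfkb2 (2.54) and Relb (2.39) were called, and stood at 1.94 and 1.76 in the 294. Il1r1 had 5 UMIs in all Havcr1-high cells and could not be read.

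The p53 target and growth arrest list had 5 of 14 genes higher (median log2 0.69, and 0.35 with 3 higher in the 294). Cdkn1a, the cell cycle inhibitor p21, was at 39.3 CPM against 13.6 CPM, with ratios of 2.90, 2.80 and 2.39. Gdf15, a stress cytokine, was at 157 CPM against 68.8 CPM, with ratios of 2.28, 2.14 and 1.86. Ccnd1, the G1 cyclin, was at 44.5 CPM against 129 CPM, a ratio of 0.345 (0.321 to 0.371). It was the 1 of 6 measured cell cycle genes past the fold. Mki67 had 4 UMIs over all 531 cells and Top2a 20 UMIs, so proliferation genes were near the floor of detection.

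Antioxidant genes included Hmox1, the haem-degrading enzyme, at 95.1 CPM against 39.2 CPM (2.43, 2.49 and 2.38) and Gclc, which begins glutathione synthesis, at 308 CPM against 126 CPM (2.44, 2.33 and 2.39). The other 13 measured genes of that list were within the fold over all Havcr1-high cells, among them Nqo1 at 1.78 and Fth1 at 1.53. Fatty acid oxidation and the nuclear-encoded respiratory chain stayed close to the whole transcriptome, with median log2 ratios of −0.15 over 15 genes (0.14 in the matched PT range) and −0.16 over 14 genes. Pdk4, which restrains glucose oxidation, was the only gene of these lists past the fold, at 104 CPM against 49.6 CPM (2.09, 2.07 and 2.21). Of 14 glycolysis and hypoxia genes 3 were higher. Slc2a1, the glucose transporter GLUT1, stood at 3.95, 2.5 and 2.14, whereas Hk1 and Pkm, at 3.57 and 2.69, stood at 0.268 and 0.897 without the 31 cells.

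Most measured members of the heat shock list were within the fold: Hspb1 was the 1 of 13 called higher. Of 13 claudin and junction genes 6 were higher and 1 lower (3 and 2 in the 294). Cldn1 (3.01, 2.96 and 2.19) and Cldn3 (3.51, 3.10 and 2.82) were called in all 3 sets, and Cdh1, E-cadherin, stood at 2.04, 1.86 and 2.08. Cdh2, N-cadherin, the main cadherin of the PT, was lower at 0.407, 0.274 and 0.241. Cdh6 and Epcam were called at 6.35 and 3.38 over all Havcr1-high cells and stood at 1.59 and 1.01 in the 294. Cd55, a brake on complement, was the 1 of 6 complement genes called higher (3.11, 3.28 and 3.87), and Mlkl, the executioner of necroptosis, the 1 of 7 cell death genes (4.09, 4.04 and 2.96). In the smaller lists, 2 of 8 profibrotic genes were higher (0 in the 294). Of 8 interferon genes 1 was higher and 1 lower (0 higher and 2 lower in the 294). Lower were 1 of 7 EGF receptor ligands and receptors (Btc, 0.432) and 2 of 8 NAD synthesis genes (1 in the 294). Over all measured genes 3.49% were higher and 4.04% lower, or 1.75% and 4.69% in the 294. With so few genes per list, nothing is read from these counts. The metallothionein Mt2 was called higher (2.53) and Mt1 stood at 1.85, but the direction turned with the cells used: the median log2 ratio of 1.11 was −0.45 in the 294, with 0 called, and −1.22 in the matched PT range.

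**Figure D4:**
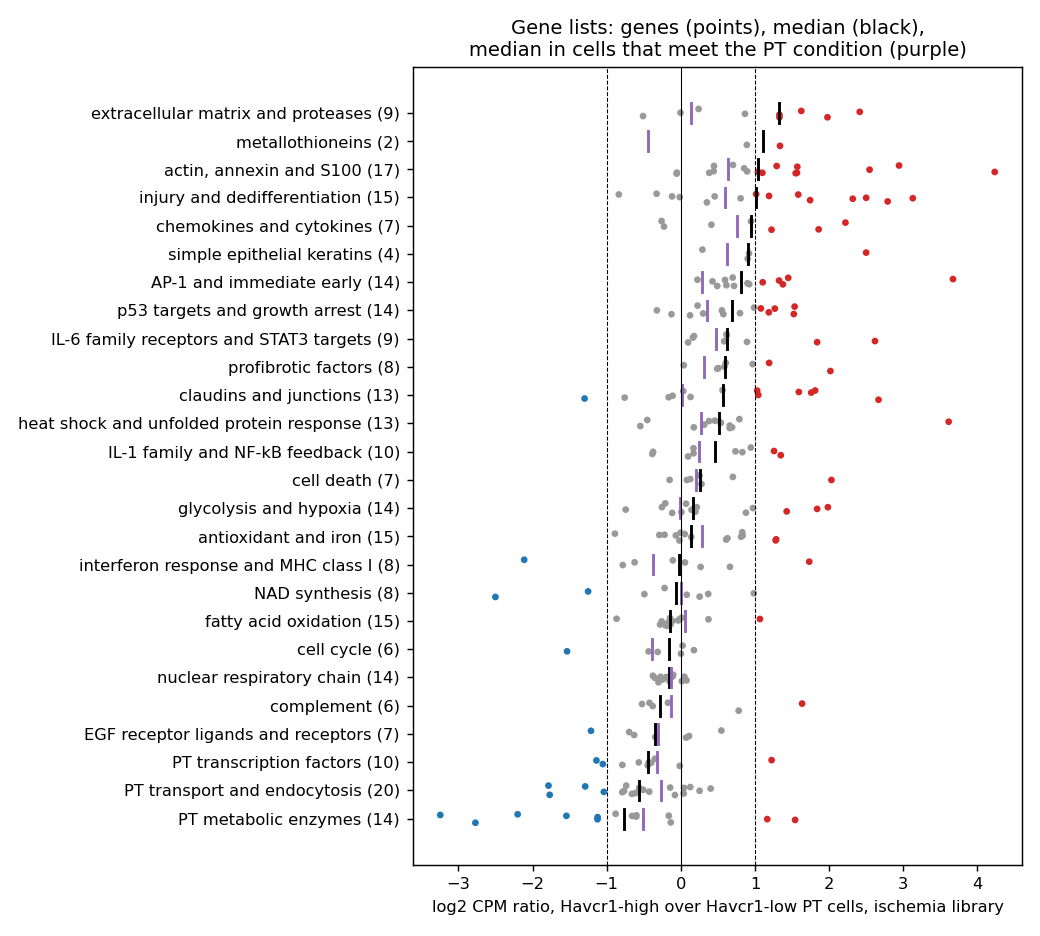
Log2 CPM ratio of Havcr1-high to Havcr1-low PT cells in the ischemia library (x axis) for each measured gene (points; red at least 2-fold higher, blue at least 2-fold lower) of the 26 gene lists, with the number of measured genes in brackets, the list median (black bar) and the median in the 294 cells that met the PT condition (purple bar). Medians run from 1.33 for the extracellular matrix list to −0.77 for PT metabolic enzymes, and most purple bars lie closer to 0.

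Of 14 measured PT metabolic enzyme genes 6 were called lower and 2 higher, with a median log2 ratio of −0.77. In the 294 cells 4 were lower and 2 higher, with a median of −0.51. The summed level went the other way, 20689 CPM against 12697 CPM, since Kap, the most abundant gene of the list, was among the 2 higher. G6pc, which releases glucose at the end of gluconeogenesis, was at 8.10 CPM against 76.8 CPM, and at 220.1 CPM in the control cells. Its ratio was 0.106 (0.0891 to 0.124), and 0.146 in the 294. Pck1, which starts that pathway, was at 66.9 CPM against 195 CPM (0.343, and 0.464 in the 294), and Fbp1 at 217 CPM against 472 CPM (0.459 and 0.574). Agxt2, a mitochondrial aminotransferase, stood at 0.459. Of the NAD synthesis list, Acmsd and Kynu, enzymes of tryptophan breakdown, stood at 0.177 and 0.420 (0.228 and 0.544 in the 294).

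Transport genes moved less as a list. Of 20 PT transport and endocytosis genes 4 were called lower and 0 higher (median log2 −0.56, −0.27 in the 294 and 0.17 in the matched PT range). They were Slc5a2, the glucose transporter SGLT2 (104 CPM against 356 CPM, ratios of 0.294, 0.307 and 0.279), Slc6a19, the neutral amino acid transporter (40.9 CPM against 141 CPM, 0.290, 0.303 and 0.337), Slc7a7 (0.409, 0.428 and 0.452) and Slc4a4, the basolateral bicarbonate transporter, whose call was lost in both smaller sets (0.487, 0.509 and 0.568). Cubn, the endocytic receptor cubilin, was at 113 CPM against 191 CPM and 299 CPM in the control cells, and Dab2, its adaptor, at 742 CPM against 1054 CPM. Of the PT transcription factors Hnf4a was at 105 CPM against 142 CPM (0.741). Over all Havcr1-high cells Esrra (0.454, 0.464 and 0.501) and Maf (0.482, 0.504 and 0.536) were called lower and Pax8 higher (199 CPM against 85.2 CPM, 2.34, 1.80 and 1.6). In the 294 cells 0 of the 10 genes were called.

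Early segment genes were lower, while 2 of the 3 measured late segment genes were higher. All 3 measured early segment genes the rule did not use were lower, with Gatm, the first enzyme of creatine synthesis, at 86.2 CPM against 588 CPM (0.147, 0.139 to 0.154). Slc34a3, a phosphate transporter among the 10 lowest genes, was at 2.86 CPM against 30.0 CPM (0.0955, 0.0712 to 0.126). The late segment genes Acsm3 (65.2 CPM against 29.1 CPM, 2.24) and Slc5a8 (32.9 CPM against 14.6 CPM, 2.26) were higher, and stood at 2.78 and 2.74 in the 294. Kap, an androgen-dependent kidney protein, was at 16240.3 CPM against 5583 CPM and 9621 CPM in the control cells, a ratio of 2.91 (2.89 to 2.92) that was 3.46 in the 294. Slc22a30, also of the late segment list, stood at 0.633. The position of a cell along the PT and its Havcr1 level cannot be told apart here. Of the rule's own genes Slc5a12 was at 62.7 CPM against 610.3 CPM and Slc7a13 at 27.0 CPM against 14 CPM, which the choice of comparison cells helped to set and from which nothing is read.

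The 10 lowest genes were mostly of low abundance. Those reported here were Car3 (carbonic anhydrase 3, ratio 0.0290), Gm47564 (a predicted noncoding gene, 0.0393), Dgkb (a diacylglycerol kinase, 0.0526), Slc22a29 (an organic anion transporter, 0.0582), Ccdc151 (a ciliary protein, 0.0667), Slc34a3, Rnase4 (a ribonuclease, 0.104), G6pc and Nepn (0.107). Car3 was at 0.540 CPM against 18.6 CPM and 20.3 CPM in the control cells. In the 294 cells each of these was below 0.15, but ratios were nearer 1 under other settings, such as G6pc at 0.374, Slc22a29 at 0.296, Nepn at 0.272 and Slc34a3 at 0.234 in the matched PT range, and Gm47564 at 0.447 and Ccdc151 at 0.303 after thinning.

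Levels were then followed over ranges of Havcr1 inside the ischemia library. The Havcr1-low PT cells were divided into 625 cells with 0 Havcr1 UMIs, 429 cells with up to 0.01% and 609 cells with 0.01 to 0.05%, and the Havcr1-high cells into 231 cells at 0.05 to 0.1%, 219 cells at 0.1 to 0.2% and 81 cells at 0.2% and over. The median cell had 16055, 39605 and 23562 UMIs in the low ranges and 36353, 36048 and 36803 UMIs in the high ones. Every cell of the range up to 0.01% held at least 10236 UMIs, since 1 Havcr1 UMI is a larger share of a shallower cell. The part of depth in the order of the low ranges was not tested. Krt20 was at 3.66, 1.71 and 5.90 CPM in the low ranges and 12.8, 27.7 and 30.9 CPM in the high ones. Sox9 climbed in every range, through 12.3, 17.5 and 28.7 CPM to 54.2, 61.1 and 76.1 CPM. Hspb1 went from 16.2, 12.7 and 35.5 CPM to 162, 325 and 448 CPM. Within Havcr1-high cells, where the PT limits of the comparison group played no part, the highest range thus held more Krt20, Sox9 and Hspb1 than the lowest. The same order of those 2 ranges was seen in cells that met the PT condition, with Hspb1 at 117 and 361 CPM and Osmr at 15.9 and 40.5 CPM. Not every gene followed it. Over the high ranges S100a6 was at 894, 837 and 620 CPM and Akap12 at 59.1, 64.6 and 36.2 CPM. Slc34a2 was at 21.4, 37.2 and 21.1 CPM. In cells that met the PT condition these genes were higher in the highest range than in the lowest, S100a6 at 405 against 112 CPM. Fosl1 was at 3.89, 5.97 and 5.65 CPM, and at 2.47, 3.39 and 2.34 CPM in cells that met the condition.

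PT genes took different courses over these ranges. G6pc was at 116, 87.2 and 35.4 CPM in the low ranges and 11.3, 5.30 and 5.65 CPM in the high ones. Slc34a3 was at 48.0, 33.0 and 12.8 CPM and then 4.59, 1.49 and 1.13 CPM. Miox, which breaks down inositol, went from 829, 736 and 567 CPM to 521, 414 and 285 CPM. Hnf4a was at 146, 145 and 136 CPM and then 103, 102 and 121 CPM, so it did not follow that order inside the Havcr1-high cells. Slc27a2 went the other way, from 519, 578 and 746 CPM to 747, 841 and 1006 CPM. Slc22a6, an organic anion transporter, was at 191, 220 and 311 CPM in the low ranges and 302, 236 and 239 CPM in the high ones. Spp1 reached its highest level, 23691 CPM, at 0.05 to 0.1% Havcr1 and stood at 19132 CPM at 0.2% and over.

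**Figure D5:**
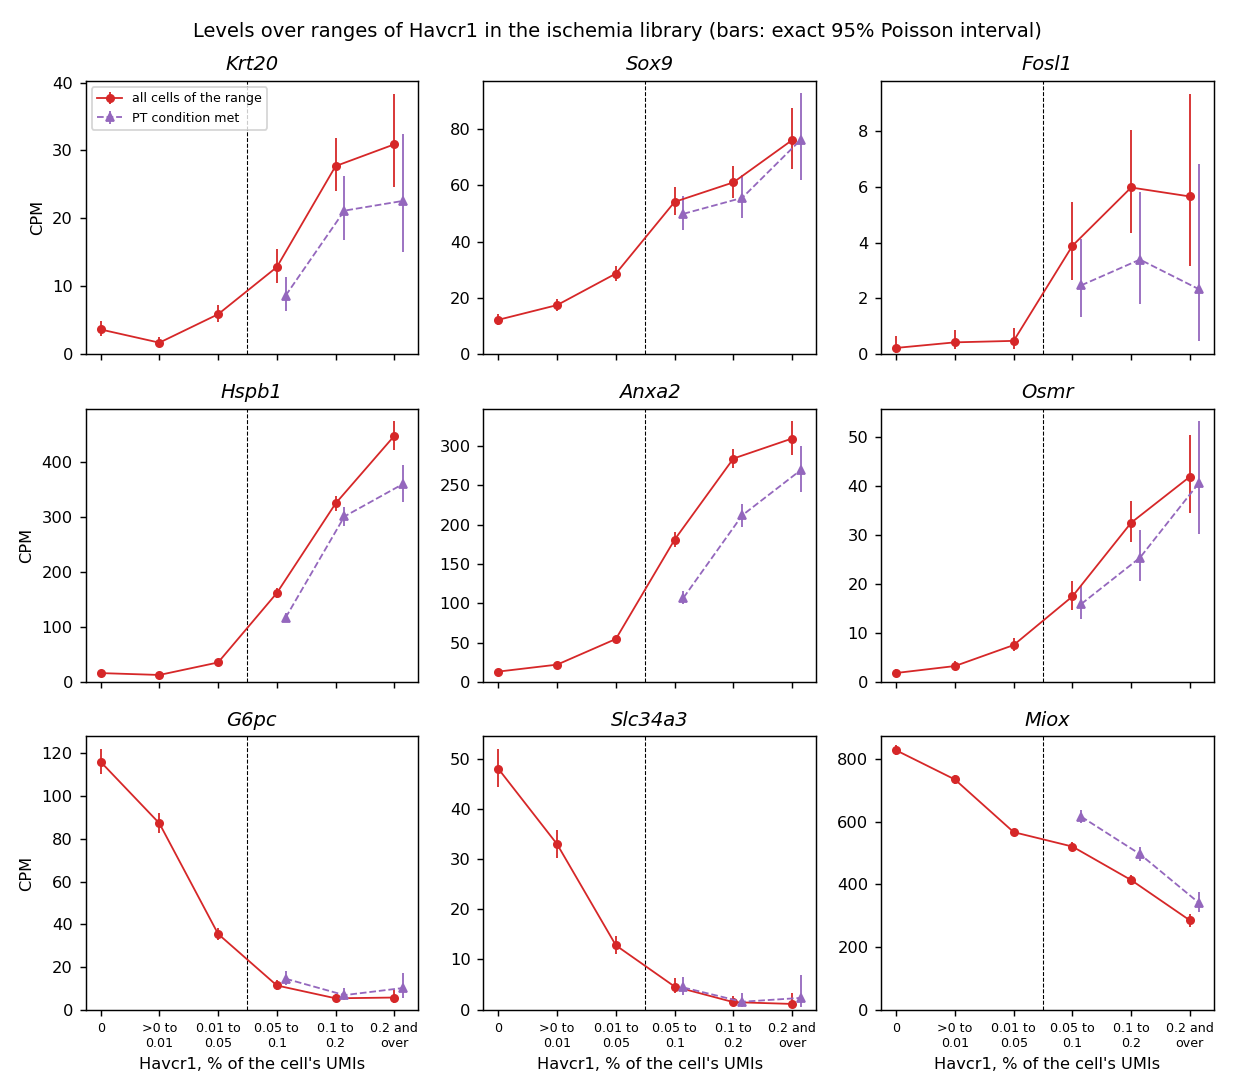
CPM (y axis) of 9 genes in 6 ranges of Havcr1 (x axis, percent of the cell's UMIs) in the ischemia library, for all cells of the range (red) and Havcr1-high cells that met the PT condition (purple), with exact 95% Poisson intervals; the dashed line marks 0.05%. Krt20, Sox9, Hspb1, Anxa2 and Osmr are higher, and G6pc and Slc34a3 lower, right of the line; Miox is lower there over all cells, while cells that met the PT condition held 617 CPM at 0.05 to 0.1%, above the 567 CPM of the range just left of the line.

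Havcr1-high cells were also split by how much PT RNA they held. Between the 294 cells that met the PT condition and the 237 that did not, 76 of 9110 genes (0.834%) were higher in the former and 214 (2.35%) lower. The cells were split on 4 PT genes, so related genes follow from the split. The 5 genes highest in cells that met the condition were Rdh16f2 (a retinol dehydrogenase family member, 4.08), Slc5a11 (an inositol transporter, 4.05), Gm6999 (4.0), Hlf (a circadian transcription factor, 3.65) and Akr1c21 (a steroid dehydrogenase, 3.61). The 5 lowest were Cald1 (0.0204), Nupr1 (0.0296), Thsd7a (0.0856), S100a6 (0.0873) and Slc4a11 (0.0943).

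Those 5 lowest genes were concentrated in the 31 cells under 0.03% of the PT genes. The 31 had a median of 15216 UMIs and 12.6% mitochondrial UMIs, and their Havcr1 level was 1186 CPM. In them Cald1, an actin regulator, was at 423 CPM, and without them its ratio to Havcr1-low PT cells went from 5.87 to 0.40. Nupr1, a stress-induced nuclear protein, was at 572 CPM, and its ratio went from 2.51 to 0.249. The 5 highest cells held 76.5% of all Cald1 UMIs and 67.8% of all Nupr1 UMIs. The 31 cells also held Cryab at 3504 CPM, Cd24a at 803 CPM, Epcam at 436 CPM and Umod at 769 CPM, and the urea transporter Slc14a2 at 450 CPM, against 1.31 CPM in the other 500. Slc14a2, Cryab and Umod are markers of other nephron segments. What share of the 31 were cells of other segments, doublets or PT cells without their program was not tested.

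The control library held 9 Havcr1-high cells, of which 7 met the PT condition, with a median of 25538 UMIs and 14.4% mitochondrial UMIs. Sox9 was at 71.8 CPM in them (16 UMIs), against 0.703 CPM in the Havcr1-low PT cells of that library. Krt20 and Fosl1 had 1 UMI each. Osmr was at 53.9 CPM (12 UMIs), Anxa2 at 71.8 CPM (16 UMIs) and Hspb1 at 67.3 CPM (15 UMIs), against 1.15, 5.16 and 8.60 CPM. Vcam1 and Cd44 stood at 148 and 135 CPM in the 9 cells, and at 7.35 and 6.81 CPM in the Havcr1-high cells of the ischemia library, but Vcam1 was found in 1 of the 9 and Cd44 in 2. The macrophage list summed to 85.3 CPM in the 9 cells (51.3 to 133), against 16.0 CPM in the Havcr1-low PT cells of that library, and 2 of the 9 were among the highest Scrublet doublet scores. With 9 cells, these levels describe those cells only.

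The Havcr1-low PT cells were not at the control level either. Between the ischemia and control libraries, 429 of 12314 genes (3.48%) were higher in Havcr1-low PT cells after ischemia and 378 (3.07%) lower, and the median log2 ratio over all genes was 0.10. The injury list had 11 of 15 genes higher and a median of 2.20, against 1.02 for Havcr1-high over Havcr1-low cells. For Spp1 the levels of the control, Havcr1-low and Havcr1-high cells were 1819.9, 16394 and 22492 CPM, and for Krt8 52.4, 135 and 253 CPM. For the late segment genes Acsm3 and Slc5a8 the order was different, since the control cells held 54.9 and 41.3 CPM, the Havcr1-low cells after ischemia 29.1 and 14.6 CPM and the Havcr1-high cells 65.2 and 32.9 CPM. These comparisons share the Havcr1-low cells of the ischemia library.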

How the data were processed

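The authors processed the reads with Cell Ranger 7.0.0 against mm10, per the submitters' processing notes, and deposited for each library a matrix of whole UMI counts for 32285 genes. The labels name 10x single cell 3′ v2 chemistry after enzyme digestion and trypsin. UMIs counted with the 10x method stand for captured molecules, and no correction for free RNA was made here. Barcodes with 2000 to 150000 UMIs and at most 55% mitochondrial UMIs were kept (7482 control, 6670 ischemia). The members, gene lists and alternatives were chosen with earlier results of these data known.

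Counts were summed over the cells of a group and expressed as CPM with exact Poisson intervals, ratios with the exact conditional binomial interval and shares with the Clopper-Pearson interval (Python 3.11.15, numpy 2.4.6, scipy 1.17.1, pandas 2.3.3, matplotlib 3.10.9). Genes needed 100 UMIs over both groups, and the 6 genes of the rule were left out of counts. Named were the 15 highest and 10 lowest genes with a UMI in at least 10% of the cells of the higher group, the 5 highest and 5 lowest between members that met the PT condition and those that did not, the markers, and members of the 26 gene and 16 cell type lists. Mitochondrial and ribosomal protein genes were not named, and a few genes that the rule named are not reported here. Doublets stayed in the main values, and an alternative dropped the top 8% of each library by Scrublet score (scanpy 1.11.5). The calculation was tested on simulated data. Fold changes rest on 1 library per condition. The symbols Aldoa and Ddit3 occur more than once and the first identifier was used.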

Additional observations from a re-analysis of the deposited data

Results flagged for a closer look

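In the ischemia library Havcr1 RNA was above the control level in barcodes under 2000 UMIs and in leukocytes within the cell limits. Barcodes under 2000 UMIs held 474 CPM of Havcr1 in the ischemia library (2737 UMIs over 6458 barcodes, 456 to 492) and 13.0 CPM in the control library. Ischemia leukocytes with at least 3 Ptprc UMIs held 78.9 CPM (72.0 to 86.4), and control leukocytes 1.71 CPM. Of the 590 ischemia leukocytes, 2 passed the Havcr1 limits of the rule.

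Apoe, the lipid carrier apolipoprotein E, stood on opposite sides of 1 in the libraries. In the control library its ratio of Havcr1-high to Havcr1-low PT cells was 2.64 (2.16 to 3.20), from 106 UMIs in 9 cells, and in the ischemia library 0.253 (0.238 to 0.269). The difference was not tested. Apoe is also abundant in macrophages. In the 9 control cells the macrophage list summed to 85.3 CPM (51.3 to 133), against 16.0 CPM in control Havcr1-low PT cells, and 2 of the 9 had Scrublet scores in the top 8% of their library. The part of either in the Apoe ratio was not tested.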

How the results depend on the processing

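With 1 library per condition no replicate could be left out and no paired analysis was possible because each condition had 1 library. The number of Havcr1-high cells was 300 in the ischemia and 5 in the control library at 0.1% Havcr1. At 0.05% Havcr1 with the PT condition also asked, it was 294 in the ischemia library. The 392 genes higher became 192 in those 294 cells, 106 with cells thinned to 2000 UMIs and 797 at 20 UMIs per gene, and the 454 genes lower 183 by thinning and 825 at 20 UMIs. Of 2 alternatives chosen after seeing the data, limiting both groups to 0.1 to 0.2% of the 4 PT genes gave 102 higher and 229 lower, and leaving out the 31 cells gave 249 higher. Thinning left 5010 measured genes and the PT window 9414, against 11246. In that PT window Akap12 stood at 0.918, Scin at 0.920 (0.835 by thinning), and the median log2 ratio was −0.21 for the injury list, −0.16 for matrix and proteases, −1.22 for metallothioneins and −1.04 for the thin limb list. The last 2 were −0.45 and −0.69 in the 294 cells, and the thin limb list −0.60 without the 31. The causes were not tested. Ratios of Hspb1 ranged from 5.29 to 16.6, Osmr from 2.91 to 14.7, Krt20 from 2.19 to 8.77 and Sox9 from 1.69 to 4.90 over the alternatives. Runx1 ranged from 5.93 in the PT window to 101.4 against comparison cells with 0 Havcr1 UMIs. Of 364 values for 28 named genes 3 crossed a ratio of 1. Of 493 values for 39 lists 7 changed sign from a median past the fold, and medians within the fold changed sign in others. Scrublet scores removed 39 of the 531 cells. Depth limits rare genes such as Fosl1.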
